A study of Mus musculus with 6 samples.

Results

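The acute phase genes described here are the 10 rows of a gene count table of mouse liver named Saa1, Saa2, Saa3, Saa4, Orm1, Orm2, Hp, Lcn2, Crp and Hpx, chosen by gene name among 55367 rows. All 10 were found and all 10 passed the filter on low counts that left 18703 genes for testing. Whole liver of C57BL/6J mice was sequenced in 6 libraries, 3 from mice homozygous for a disrupted Lmln gene (Lmln-/-, written Lmln-KO) and 3 from wild-type (WT) mice. The mice were 46 weeks old, apart from that of Lmln-KO replicate 3, which was 39 weeks old. The labels name no treatment, do not say how Lmln was disrupted, give no sex, and do not say whether each library is 1 animal, so p-values measure the spread between these libraries.

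Acute phase proteins are plasma proteins that hepatocytes secrete in changed amounts during infection, injury or inflammation elsewhere in the body. Cytokines of the interleukin-6 family act through a receptor with the shared subunit gp130 and the transcription factor STAT3, and interleukin-1 and tumour necrosis factor act through NF-kB. Factors of the C/EBP family act with both. In the mouse, serum amyloid A and serum amyloid P are the strongly induced members, whereas C-reactive protein responds weakly.

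Total counts ran from 17388360 to 22494696 per library and were larger in each Lmln-KO library than in any WT library. Counts of Lmln itself, the targeted gene, were 4, 12 and 2 in the libraries labelled Lmln-KO and 79, 80 and 39 in those labelled WT. Xist, the RNA of the inactive X chromosome, was at 1878 to 1947 CPM (counts scaled to a library of 1e+06) in Lmln-KO replicate 3 and WT replicates 2 and 3 and below 1 CPM in the others, in which 4 Y-linked genes summed to 216 to 235 CPM. Hepatocyte markers, led by Alb, Cyp2e1 and Cps1, summed to 66092 to 99730 CPM. Levels are CPM scaled by trimmed mean of M values (TMM), and changes are log2 fold changes of Lmln-KO over WT.

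One library stood apart. In Lmln-KO replicate 1 the 10 genes took 1.13% of all counts, against 0.451% to 0.582% in the other 5 libraries. It was the highest of the 6 libraries for 9 of the 10 genes, all but Saa3, where 15.6% of all tested genes were highest in that library. For 6 of the 10 its level was at least 1.5 times that of the next library, and for 4 (Saa2, Saa1, Lcn2 and Orm2) at least 2 times, against 0.711% and 0.144% of all tested genes. The genotype difference of each member is therefore also given without this library.

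**Figure D1:**
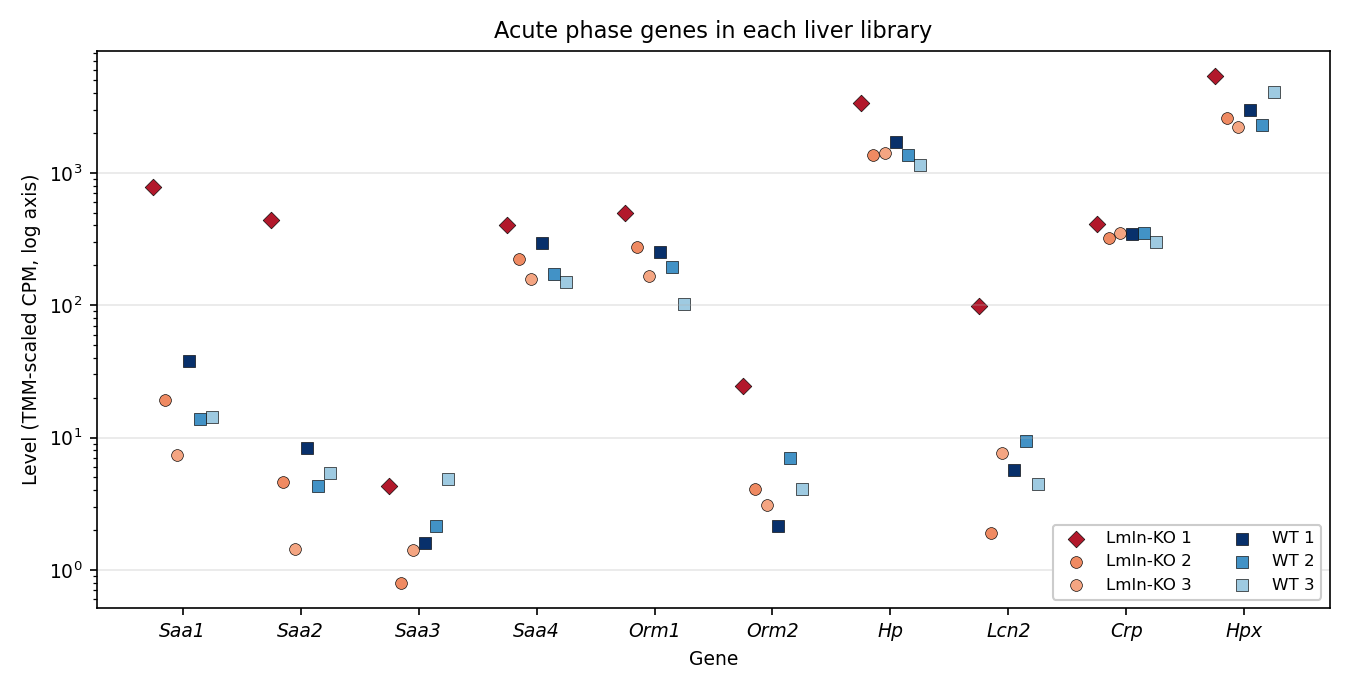
Level of each of the 10 acute phase genes (horizontal axis) in TMM-scaled CPM on a log axis, with 1 point per library. The diamond, Lmln-KO replicate 1, lies above every other library for 9 genes and second for Saa3, and the other 5 libraries overlap between the genotypes for all but Saa3, where both remaining Lmln-KO libraries are the lowest.

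Saa1 and Saa2 encode the circulating serum amyloid A proteins, which are carried on high-density lipoprotein. They lie side by side on chromosome 7 of GRCm38, Saa1 (ENSMUSG00000074115.5) at 46740497 to 46742980 on the minus strand and Saa2 (ENSMUSG00000057465.5) at 46751790 to 46754313 on the plus strand. Their promoters are shown because these 2 genes had the widest spread between libraries of the 10, and that of Saa4, a neighbour on the same chromosome, because it did not. The windows run 5′ to 3′ on the gene's strand up to the base before the gene start, from RefSeq on GRCm38.p6, at chr7:46742981-46743230 (minus strand) for Saa1, chr7:46751583-46751789 (plus strand) for Saa2 and chr7:46732604-46732853 (minus strand) for Saa4. Capitals mark matches on either strand to TTGCNNAA, a C/EBP motif.
Saa1: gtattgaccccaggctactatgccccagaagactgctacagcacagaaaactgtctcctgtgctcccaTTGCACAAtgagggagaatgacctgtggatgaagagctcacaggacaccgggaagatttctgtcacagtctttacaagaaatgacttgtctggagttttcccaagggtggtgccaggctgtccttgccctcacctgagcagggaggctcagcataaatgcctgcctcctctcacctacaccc
Saa2: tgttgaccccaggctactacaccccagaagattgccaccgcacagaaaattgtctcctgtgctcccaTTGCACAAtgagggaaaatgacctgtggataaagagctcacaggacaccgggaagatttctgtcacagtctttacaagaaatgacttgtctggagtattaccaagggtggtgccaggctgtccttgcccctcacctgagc
Saa4: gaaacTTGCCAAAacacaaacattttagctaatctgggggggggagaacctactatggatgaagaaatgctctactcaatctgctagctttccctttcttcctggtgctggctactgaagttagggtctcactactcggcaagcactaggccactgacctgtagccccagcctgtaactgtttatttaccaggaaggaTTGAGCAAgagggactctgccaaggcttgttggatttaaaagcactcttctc
In the best ungapped alignment, the Saa1 and Saa2 windows of 250 bases before the RefSeq start had the same base at 197 of 249 positions (79.1%). That share understates their likeness, because Saa2 has an extra c (ccttgcccctcacc against ccttgccctcacc in Saa1). The bases after it were compared out of register. Both windows held TTGCACAA once. Saa1 and Saa4 had the same base at 28.6% of positions in the best ungapped alignment, and Saa4 held TTGCCAAA and, on the other strand, TTGAGCAA.

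Saa1 was at 788 CPM in Lmln-KO replicate 1, 19.2 in replicate 2 and 7.33 in replicate 3, and at 38.2, 13.7 and 14.2 CPM in WT replicates 1, 2 and 3. The first of these was 20.6 times the next highest library, WT replicate 1, while the lowest of all was another Lmln-KO library, so the groups overlapped. The log2 fold change was 3.62 (SE 2.11), adjusted p 0.933 after Benjamini-Hochberg adjustment over all tested genes (edgeR's quasi-likelihood test, as for each edgeR p below), and -0.73 (SE 0.712) without Lmln-KO replicate 1. Group means were 272 ± 447 CPM in Lmln-KO and 22.1 ± 14 in WT (SD, n = 3).

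Saa2 followed the same order at the top. It was at 438, 4.63 and 1.45 CPM in Lmln-KO replicates 1, 2 and 3 and at 8.37, 4.28 and 5.41 CPM in the WT libraries. The highest library exceeded the next by 52.3 times, which was the largest such ratio of the 10 genes. Lmln-KO replicate 3 was again the lowest. Between genotypes it differed by 4.62 on the log2 scale (SE 2.49, edgeR adjusted p 0.933) and -0.98 (SE 0.548) without Lmln-KO replicate 1. These 2 genes share sequence: of the 36-base windows of their protein-coding transcripts, the length of 1 read, 24.6% of those of Saa1 and 18.9% of those of Saa2 also occur in a transcript of another gene in GENCODE M21, mainly each other. The sources used here do not say how the aligner placed such reads, so the split between Saa1 and Saa2 is uncertain. With their counts summed into one feature the log2 fold change was 3.90 (edgeR adjusted p 0.933).

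Saa3 encodes the serum amyloid A form that is made in macrophages and fat as well as in liver. It lies at 46711998 to 46715700 on chromosome 7 and was the lowest of the 10 genes, with 17 to 89 counts per library. It measured 4.28, 0.803 and 1.41 CPM in Lmln-KO replicates 1, 2 and 3 and 1.60, 2.14 and 4.84 CPM in the WT libraries, so that WT replicate 3 lay above every Lmln-KO library. Lmln-KO replicates 2 and 3 were below all 3 WT libraries. Its log2 fold change was -0.41 (SE 0.697, edgeR adjusted p 0.952). It was 0.20 without WT replicate 3 and -1.35 without Lmln-KO replicate 1. The latter fit gave it the smallest unadjusted p of the 10 genes (0.047, adjusted p 0.999 in edgeR). Of all genes tested without that library, 2.83% were under 0.05. The library left out was chosen after the member values were seen, and it was the highest Lmln-KO library for Saa3.

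Saa4, the constitutive serum amyloid A, lies at 46727998 to 46732603. It measured 401, 222 and 157 CPM in Lmln-KO replicates 1, 2 and 3 and 294, 173 and 150 CPM in the WT libraries. The highest library was 1.36 times the next, against 20.6 times for Saa1. All 3 libraries with Y-linked transcripts were above all 3 with Xist, as they were for Saa1 and Orm1. That held for 3 of the 10 genes, where 13.3% of all tested genes had it. The log2 fold change of Saa4 was 0.34 (SE 0.422, edgeR adjusted p 0.936), -0.11 without Lmln-KO replicate 1, and 0.02 with a term for the sex-chromosome transcripts.

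Orm1 and Orm2 encode orosomucoid, the alpha-1-acid glycoprotein, a carrier of basic drugs and lipids in plasma. They lie on chromosome 4 at 63344560 to 63348163 and 63362449 to 63365878, with Orm3 between them. The Orm2 promoter is shown because it holds a C/EBP match that reads the same on both strands, in a gene whose highest library stood well above the rest; it is chr4:63362199-63362448 on the plus strand, from the same source.
Orm2: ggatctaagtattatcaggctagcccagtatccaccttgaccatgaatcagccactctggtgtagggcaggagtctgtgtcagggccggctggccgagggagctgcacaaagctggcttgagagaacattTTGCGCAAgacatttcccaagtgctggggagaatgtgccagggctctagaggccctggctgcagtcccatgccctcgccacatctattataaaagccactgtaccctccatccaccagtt
Orm1 measured 496, 273 and 165 CPM in Lmln-KO replicates 1, 2 and 3 and 253, 194 and 101.9 CPM in the WT libraries. Here the first 2 Lmln-KO libraries were the highest and the third lay inside the WT range. Its log2 fold change was 0.77 (SE 0.515, edgeR adjusted p 0.933), or 0.26 without Lmln-KO replicate 1. Orm1 and Crp were the only members whose log2 fold change stayed above 0 when any 1 library was left out.

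Orm2 was far lower, at 24.4, 4.11 and 3.11 CPM in Lmln-KO replicates 1, 2 and 3 and 2.14, 6.95 and 4.09 CPM in the WT libraries. Lmln-KO replicate 1 was 3.51 times WT replicate 2, the next library, and the lowest library was WT replicate 1. Its genotype difference was 1.25 on the log2 scale (SE 0.991, edgeR adjusted p 0.933) and -0.28 without Lmln-KO replicate 1. Of the 36-base transcript windows, 25.7% of Orm1 and 30.8% of Orm2 occur in another gene, mainly in the other copies, so their split is uncertain too. The third copy, Orm3, had 8 to 93 counts and was highest in WT replicate 2 at 4.97 CPM, against 3.12 CPM in Lmln-KO replicate 1. With all 3 copies summed the log2 fold change was 0.77 (edgeR adjusted p 0.933).

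Hp encodes haptoglobin, which binds free haemoglobin, and Hpx encodes hemopexin, which binds free haem. Both were abundant. Hp (chromosome 8, 109575128 to 109579172) measured 3370, 1355 and 1417 CPM in Lmln-KO replicates 1, 2 and 3 and 1715, 1356 and 1143 CPM in the WT libraries. The highest library was 1.97 times the next, and the remaining 5 spanned 1.5-fold, with both remaining Lmln-KO libraries inside the WT range. For Hp the log2 fold change was 0.54 (SE 0.38, edgeR adjusted p 0.933) and -0.014 (SE 0.21) without Lmln-KO replicate 1.

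Hpx (chromosome 7, 105591613 to 105600137) measured 5383, 2608 and 2217 CPM in Lmln-KO replicates 1, 2 and 3 and 2960, 2298 and 4099 CPM in the WT libraries. It differed from Hp in having WT replicate 3 as the second highest library, the one in which Hp was lowest. Its log2 fold change was 0.13 (SE 0.375, edgeR adjusted p 0.975) and -0.36 without Lmln-KO replicate 1.

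Lcn2 encodes lipocalin 2, which withholds iron from bacteria by binding their siderophores. It lies on chromosome 2 at 32384633 to 32388252. It measured 99.4, 1.89 and 7.59 CPM in Lmln-KO replicates 1, 2 and 3 and 5.70, 9.41 and 4.43 CPM in the WT libraries. The 2 extremes were thus both Lmln-KO libraries of 46-week-old mice with Y-linked transcripts, 52.6-fold apart, with 2069 and 40 counts. The highest was 10.6 times the next library. For Lcn2 the log2 fold change was 2.47 (SE 1.62, edgeR adjusted p 0.933) and -0.45 (SE 0.648) without Lmln-KO replicate 1. None of the 36-base windows of its protein-coding transcripts occur in a transcript of another gene, nor do those of Hp and Hpx. Counted exons outside these transcripts and inexact matches were not searched.

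Crp encodes C-reactive protein, a pentraxin that binds phosphocholine on microbes and dying cells. Its gene model spans 172698055 to 172833031 on chromosome 1, where the predicted gene Gm38051, with 11 to 46 counts, overlaps it. It measured 408, 320 and 353 CPM in Lmln-KO replicates 1, 2 and 3 and 347, 351 and 301 CPM in the WT libraries. It was the steadiest of the 10, with a coefficient of variation of 10.4% over the 6 libraries, against 230% for Saa2, 214% for Saa1 and 179% for Lcn2. The log2 fold change was 0.11 (SE 0.137, edgeR adjusted p 0.936), or 0.02 without Lmln-KO replicate 1.

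**Figure D2:**
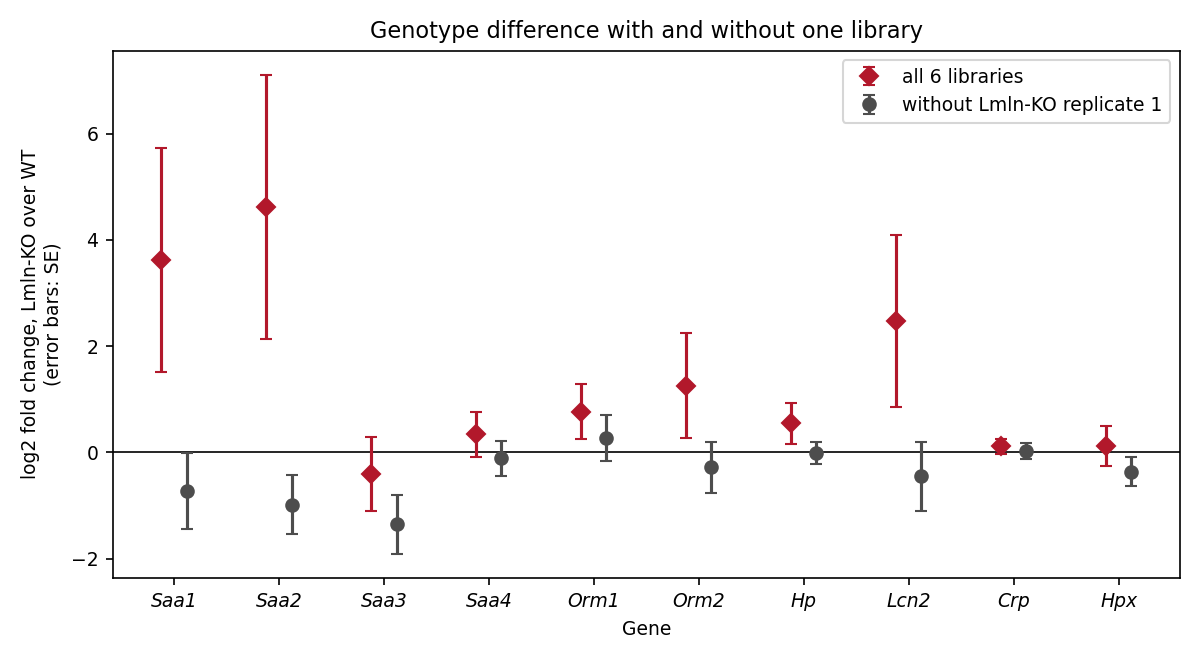
Log2 fold change of Lmln-KO over WT with its standard error for each of the 10 genes, from all 6 libraries (diamonds) and without Lmln-KO replicate 1 (circles). The diamonds of 9 genes lie above 0, with wide errors for Saa1, Saa2 and Lcn2, and only the circles of Orm1 and Crp lie above 0.

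The comparison of genotypes asked whether disrupting Lmln changes these transcripts in liver. No member passed: 0 of 10 had an adjusted p under 0.05 in edgeR, where 0% of all 18703 tested genes did, and 0 of 10 had an unadjusted p under 0.05, where 4.66% of all tested genes did (1.52% higher and 3.14% lower in Lmln-KO). Unadjusted p-values ran from 0.133 to 0.748 in edgeR. In 0 of 10 genes did the groups separate without overlap, against 10.3% of all tested genes (4.61% higher and 5.73% lower in Lmln-KO). Log2 fold changes were positive for 9 of 10 members, with a median of 0.66, where 49.4% of all tested genes were positive and their median was -0.0038. Without Lmln-KO replicate 1 they were positive for 2 of 10 with a median of -0.32, against 49.2% and -0.0047 over all tested genes. That library was singled out because it was the highest for 9 of these 10 genes, so leaving it out had to lower their values. All tested genes were not chosen in that way, so the comparison is not like for like and shows no decrease. The SD in CPM among Lmln-KO libraries, which include replicate 1, exceeded that among WT libraries for all 10 genes. For Saa3 it did so narrowly, at 1.86 against 1.73 CPM. The share of all tested genes with this order was not counted, so no genotype difference in spread is drawn from it. DESeq2 called 0.139% of 17228 genes and no member, with adjusted p of at least 0.9998 for 8 members, and gave no p for Saa1 and Saa2. Limma-voom gave the members adjusted p from 0.896 to 0.985.

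Each genotype had libraries of both kinds, with Y-linked transcripts or with Xist. With a term for this difference the log2 fold change was positive for 8 of 10 members and none passed (0.00535% of all tested genes did; smallest adjusted p 0.987 in edgeR, smallest unadjusted p 0.363, where 4.34% of all tested genes were under 0.05). Within the libraries with Y-linked transcripts, where Lmln-KO replicates 1 and 2 are set against WT replicate 1, the mean log2 CPM of all 10 was higher in Lmln-KO, by 1.69 for Saa1, 2.43 for Saa2 and 1.28 for Lcn2. That count rests on Lmln-KO replicate 1: Lmln-KO replicate 2 alone was above WT replicate 1 for 2 of 10, Orm1 and Orm2, and below it for Saa1, Saa2 and Lcn2. Within those with Xist, where Lmln-KO replicate 3 is set against WT replicates 2 and 3, it was higher for 4 of 10, with differences of -0.92, -1.66 and 0.23 for the same 3 genes. In this set the Lmln-KO mouse was 39 weeks old and the WT mice 46 weeks, so genotype and age cannot be told apart. A test of the difference between these effects gave the members unadjusted p from 0.174 to 0.889 in edgeR and none passed (0% of all tested genes did).

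Compared per kilobase of exon, the members kept wide differences in level. Mean values were 2175 CPM per kilobase of exon (RPKM) for Hpx, 1075 for Hp and 319 for Orm1, then 111 for Saa4 and 100.7 for Crp, which overlapped over the libraries. Below them came 59.3 RPKM for Saa1, 30.6 for Saa2, 9.64 for Orm2, 8.16 for Lcn2 and 0.964 for Saa3. The means of Saa1, Saa2, Orm2 and Lcn2 are set mostly by Lmln-KO replicate 1. The deposited exon length of Saa1 is 2478 bases, whereas its longest protein-coding transcript in GENCODE M21 has 609, so its level per length is understated. The same holds for Saa2, Lcn2 and Crp. By longest protein-coding transcript the means were 241 RPKM for Saa1, 205 for Crp, 118 for Saa2, 111 for Saa4, 23.4 for Lcn2 and 9.64 for Orm2, which puts Saa1 above Crp, Saa2 above Saa4 and Lcn2 above Orm2, the opposite of the order by exon length. On this scale Saa1 reached 1294 RPKM in Lmln-KO replicate 1, behind Hpx at 3591 and Hp at 2505 RPKM and ahead of Saa2 at 672 and Orm1 at 641. In the other 5 libraries Saa1 lay between 12.04 and 62.7 RPKM, below Orm1, whose lowest was 131.

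**Figure D3:**
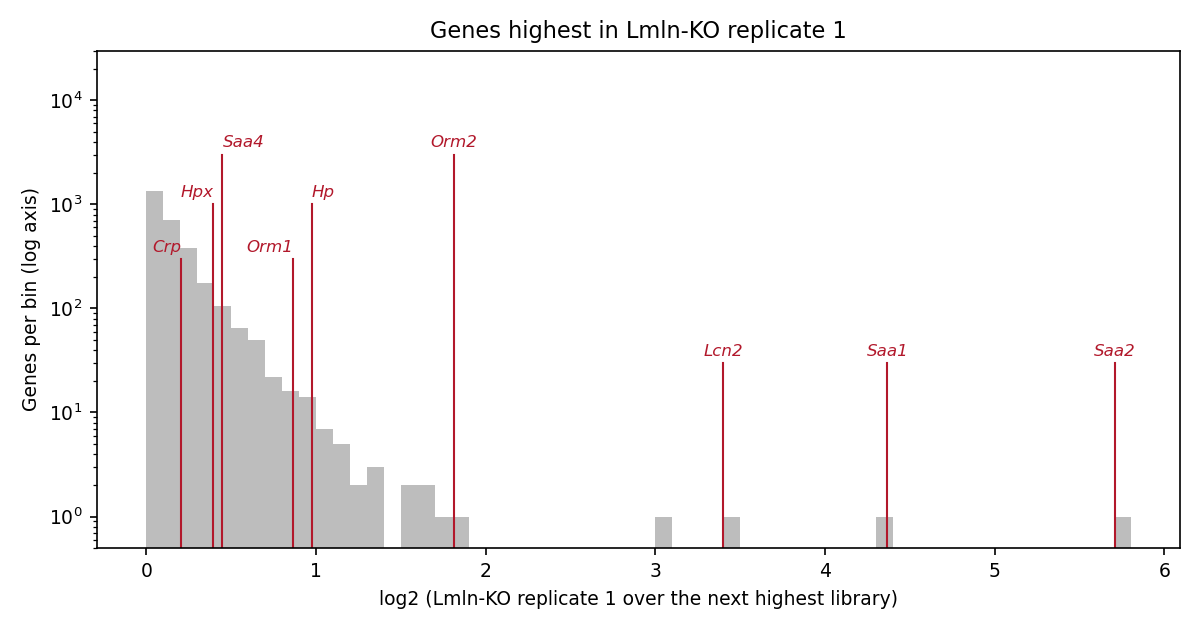
Histogram of all 2915 tested genes that were highest in Lmln-KO replicate 1, by the log2 ratio of that library to the next highest (horizontal axis) and the number of genes per bin on a log axis, with 9 acute phase genes marked by red lines, whose heights only separate the names. Saa2, Saa1 and Lcn2 lie at the far right end.

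Other positive acute phase genes, a list of 35 that were all tested, were mixed. None passed (0 higher and 0 lower in edgeR), 17 of 35 were positive and the median was -0.0029, or -0.16 with 6 of 35 positive without Lmln-KO replicate 1. Lmln-KO replicate 1 was the highest library for 16 of 35, and at least 1.5 times the next for 7, Apcs, Lrg1, Serpina3n, Fga, Fgb, Fgg and Fgl1, which are named after their values were seen. Apcs, serum amyloid P, measured 240, 43.9 and 114 CPM in Lmln-KO replicates 1, 2 and 3 and 80.0, 88.6 and 72.2 CPM in the WT libraries. Lrg1, a leucine-rich glycoprotein of plasma, measured 1135, 271 and 221 against 368, 186 and 129 CPM, and Serpina3n, a serine protease inhibitor, 662, 191 and 266 against 271, 241 and 233 CPM. In each of these 3 genes the first library was more than 2 times the next, and without it the log2 fold changes were 0.12 for Lrg1, -0.11 for Serpina3n and -0.018 for Apcs. For Apcs the highest and the lowest library were both Lmln-KO.

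The fibrinogen chain genes had a smaller excess. Fgb measured 7061, 3086 and 3277 CPM in Lmln-KO replicates 1, 2 and 3 and 4232, 3463 and 3788 CPM in the WT libraries, and Fga and Fgg were 1.54 and 1.56 times the next library in Lmln-KO replicate 1. In both remaining Lmln-KO libraries Fgb lay below all 3 WT libraries. The genes with the smallest p of this list had no excess in that library over all others beyond 1.5 times: Cd14, the endotoxin co-receptor, had a log2 fold change of -0.88 (SE 0.221), Mbl1, a mannose-binding lectin, 0.50 (SE 0.214), Serpina3k 0.73 (SE 0.394) and Itih2 -0.44 (SE 0.266), each with an edgeR adjusted p of 0.933.

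**Figure D4:**
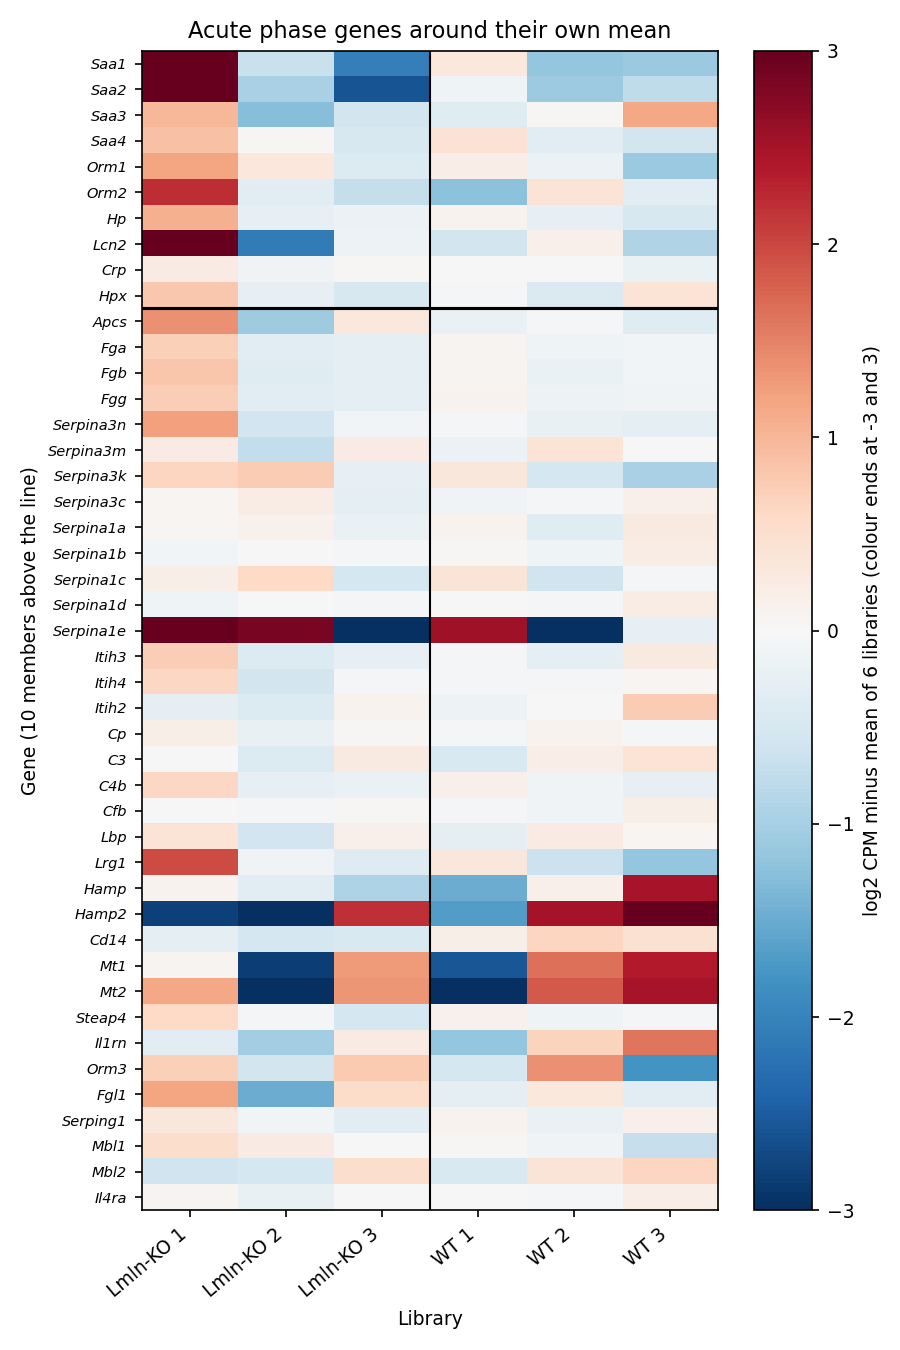
Log2 CPM of the 10 members (above the line) and 35 other positive acute phase genes (below) minus each gene's mean over the 6 libraries, with red for above and blue for below and libraries in columns. The first column, Lmln-KO replicate 1, is red for all 10 members and, among others below the line, for Apcs, Serpina3n, Lrg1 and Fgl1. Serpina1e is the reddest below the line there (3.03), and is also red in Lmln-KO replicate 2 (2.84) and WT replicate 1 (2.55). Hamp2, Mt1 and Mt2 are highest in WT replicate 3, although Mt2 is also red in the first column (1.15).

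Negative acute phase genes encode plasma proteins whose output falls in the response. Of 15 tested, 0 passed in either direction, 3 were positive, and the median log2 fold change was -0.11, or -0.13 without Lmln-KO replicate 1. Lmln-KO replicate 1 was the lowest library for 4 of 15, against 15.4% of all tested genes. Alb, albumin, measured 45715, 55393 and 60834 CPM in Lmln-KO replicates 1, 2 and 3 and 67736, 62501 and 74329 CPM in the WT libraries, so the groups did not overlap (log2 fold change -0.34, SE 0.21, edgeR adjusted p 0.933). Alb and Gc were the 2 of 15 that were lower in Lmln-KO without overlap, as were 5.73% of all tested genes. Serpina6, the corticosteroid-binding globulin, measured 107, 116 and 324 against 156, 344 and 626 CPM, and was lower in each library with Y-linked transcripts than in any with Xist. Ahsg and Trf, encoding fetuin A and transferrin, differed by -0.34 (SE 0.239) and -0.13 (SE 0.172) on the log2 scale.

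Several inducing cytokines had too few counts to test. Of 12 ligands 6 were tested, with 1 positive and a median of -0.14, or 1 and -0.21 without Lmln-KO replicate 1. Il6 had 0 counts in each Lmln-KO library, which allows up to 0.144 CPM in replicate 1, and 1, 9 and 4 counts in the WT libraries. Il1b, interleukin-1 beta, measured 2.21, 4.01 and 4.90 CPM in Lmln-KO replicates 1, 2 and 3 and 11.8, 9.95 and 8.64 CPM in the WT libraries, and so was lowest where the members were highest. Its log2 fold change was -1.44 (SE 0.285) with an adjusted p of 0.933 in edgeR and 0.00664 in DESeq2. Ctf1, cardiotrophin 1, had one of 0.34 (SE 0.2), Clcf1 -0.38 (SE 0.332) and Il18 -0.13 (SE 0.163). The limit given for Il6 covers counting error only, whereas each SE includes the spread between libraries. It treats counts as independent, but both reads of a pair can be counted, so the limit may be too low.

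Receptors and signalling genes did not pass either: of 28 tested, 15 were positive with a median of 0.04 (12 and -0.04 without Lmln-KO replicate 1), 0 were called, and Lmln-KO replicate 1 was the highest for 7. Socs3, the feedback inhibitor of STAT3 signalling, measured 21.5, 16.3 and 6.22 CPM in Lmln-KO replicates 1, 2 and 3 and 10.7, 7.33 and 5.70 CPM in the WT libraries, and Stat3 267, 133 and 131 against 222, 146 and 164 CPM. Both were highest in Lmln-KO replicate 1, at 1.31 and 1.20 times the next library. Log2 fold changes were 0.89 (SE 0.487) for Socs3 and -0.0051 (SE 0.321) for Stat3, or 0.52 and -0.42 without that library. The receptor genes Il6ra and Il6st, the latter encoding gp130, differed by -0.41 (SE 0.392) and 0.05 (SE 0.134) on the log2 scale. Lifr, the leukaemia inhibitory factor receptor, had 0.61 (SE 0.237), Osmr, the oncostatin M receptor, -0.59 (SE 0.264), Ikbkg 0.28 (SE 0.138) and Nfkbia, the NF-kB inhibitor, -0.38 (SE 0.201), each with an edgeR adjusted p of 0.933.

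Among 14 liver transcription factors of the response, 9 were positive, the median was 0.02 (7 and -0.0094 without Lmln-KO replicate 1) and 0 passed. Cebpb measured 72.7, 68.1 and 46.7 CPM in Lmln-KO replicates 1, 2 and 3 and 70.6, 79.4 and 73.7 CPM in the WT libraries, so Lmln-KO replicate 1 lay inside the WT range. Cebpd, also inside it there at 4.71 CPM, had a log2 fold change of -0.56 (SE 0.262). Foxa2 and Cebpa, 2 of the 14, were higher in Lmln-KO without overlap of the groups, as were 4.61% of all tested genes. They differed by 0.98 (SE 0.315) and 0.32 (SE 0.182) on the log2 scale, each with an edgeR adjusted p of 0.933. Onecut1 was at 137 CPM in Lmln-KO replicate 2 and at 16.2 CPM or less in the other 5 libraries. Of 13 genes that bind or clear the member proteins, 5 were positive with a median of -0.09 (5 and -0.012 without Lmln-KO replicate 1) and 0 passed. Hmox1, the haem oxygenase, had a log2 fold change of -0.31 (SE 0.162), Ager -1.42 (SE 0.499), Fcgr1 0.38 (SE 0.29) and Scarb1, the receptor for high-density lipoprotein, -0.24 (SE 0.183).

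Neutrophils and macrophages also make Lcn2 and Saa3. In whole liver, a change in the number of cells of a type and one in RNA per cell cannot be told apart. The 14 neutrophil markers, of which 3 were tested, summed to 7.73 CPM in Lmln-KO replicate 1, 3.45 and 5.63 CPM in the other Lmln-KO libraries and 7.06 to 7.66 CPM in WT, so the WT libraries were close to Lmln-KO replicate 1. In that library 4 of the 14 were at their highest, Csf3r at 3.94 CPM (next 3.56), S100a9 at 1.06 (next 0.749), S100a8 at 0.576 (next 0.469) and Padi4 at 0.336 (next 0.238), and 2 of the 14, Mpo and Ngp, had 0 counts. The 14 Kupffer cell and macrophage markers summed to 378 CPM there, 361 and 327 CPM in the other Lmln-KO libraries and 369 to 468 CPM in WT. The 7 adipocyte markers summed to 13.1 CPM in Lmln-KO replicate 1, 19.1 and 6.10 CPM in replicates 2 and 3, and 20.1, 7.65 and 6.85 CPM in WT. None was highest in Lmln-KO replicate 1, where Cidec was at 5.91, Fabp4 at 4.71 and Cfd at 2.498 CPM and the other 4, Adipoq among them, had 0 counts. The 7 B and plasma cell markers summed to 29.4, 14.7 and 21.7 CPM in Lmln-KO replicates 1, 2 and 3 and 30.2, 154 and 302 CPM in WT. All 5 of them that were tested were lower in Lmln-KO without overlap, as were 5.73% of all tested genes. All 5 had an unadjusted p under 0.05 in edgeR, as had 3.14% of all tested genes in this direction, and 0 passed adjustment. The gap to WT replicate 1 could be narrow: Ighm was at 23.0 CPM in Lmln-KO replicate 1 against 23.2 CPM there. The median genotype difference of the 5 in log2 CPM was -0.50 where Y-linked transcripts were found and -2.06 where Xist was. Among the libraries with Xist, genotype cannot be told apart from age, since only the Lmln-KO mouse was 39 weeks old. The part of other cell types in the member values was not tested.

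The promoter windows of 8 members were in the RefSeq table, those of Orm1 and Hp not being matched. Of 5 motifs searched on both strands of the 250 bases before the start, TTGCNNAA (C/EBP) occurred in 7 of the 8, all but Crp, where 9.56% of all 32851 promoter windows of that length held it. The others occurred in 0 of 8: TTCNNNGAA (a STAT palindrome, in 7.02% of all windows), CTGGGAA (an acute phase response core, 9.1%), an NF-kB motif (1.41%) and an HNF1 motif (0.371%). These are letter matches within short windows. Other spellings of the motifs were not searched, so 0 of 8 does not show that such sites are absent.

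Genes with the library profile closest to a member were sought among tested genes that are not members by the root mean square distance between centred log2 CPM over the 6 libraries, as a description, among genes with at least 0.5 of its SD. For Orm1 they were Kcnt2 (0.121), Hyou1 (0.141), Creld2 (0.144), Gm13449 (0.147) and Adh4 (0.228) among 2434 candidates. Hyou1 measured 697, 417 and 252 CPM in Lmln-KO replicates 1, 2 and 3 and 477, 303 and 179 CPM in the WT libraries, the same order of libraries within each genotype as Orm1. Between members, Saa1 and Saa2 lay 0.50 apart, and Lcn2 was nearest to Orm2 at 1.01. Among genes that are not members, the closest to Saa1 (own SD 2.42) was Derl3 at 1.09, followed by Cxcl1 (1.25), Asns (1.30), Zbtb7c (1.39) and Gm379 (1.39), and the closest to Lcn2 (own SD 1.91) was Lrg1 at 1.16, followed by Derl3 (1.25), Nucb2 (1.28), Gm5873 (1.32) and Sqle (1.39).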

How the data were processed

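Liver RNA was measured by paired-end sequencing with 36-base reads after ribosomal RNA depletion, per the labels' protocols. The authors deposited raw counts per gene name, made with featureCounts 2.0.1 over exons of Ensembl release 102 on GRCm38, per the file headers. That command sets no paired-end, strand or multi-mapping option. The submitters' processing notes name Subread 2.0.2 and edgeR 3.36.0, with no aligner named in the sources used here. Of 55367 rows, 21412 had no count and 0 named no gene. Every pair of libraries differed beyond counting noise (lowest ratio of chi-square to its degrees of freedom 10.9), so none is a copy of another. That does not show whether they come from separate animals. Each library was treated as 1 replicate.

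Tests used edgeR 4.0.16 in R 4.3.3: TMM scaling, filterByExpr with a minimum count of 10 (18703 genes, 99.8% of counts), robust quasi-likelihood fitting with genotype as the term, and Benjamini-Hochberg adjustment at 0.05. SE was taken as |log2 fold change|/sqrt(F). Differences within sets of libraries use log2 CPM with a prior count of 2. CPM and RPKM were computed from the deposited counts and exon lengths. Alternatives were other scalings and filters, DESeq2 1.42.0, limma-voom (limma 3.58.1), a replicate block, a sex-chromosome term (whether Xist exceeds the sum of Ddx3y, Eif2s3y, Kdm5d and Uty) and leaving out each library. The fit was tested on simulated counts.

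The members and gene lists were chosen with earlier results of these data known. The text names all members, Lmln, up to 4 genes of smallest p per companion list, a fixed set of pathway genes, and the 5 nearest profiles of Saa1, Orm1 and Lcn2 (average log2 CPM 1 or more).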

Additional observations from a re-analysis of the deposited data

Results flagged for a closer look

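Orm2 had opposite signs of the genotype difference in the libraries with Y-linked transcripts and in those with Xist. In the first, Lmln-KO replicates 1 and 2 (24.4 and 4.11 CPM) were both above WT replicate 1 (2.14 CPM), a difference of 2.18 in mean log2 CPM. In the second, Lmln-KO replicate 3 (3.11 CPM) was below WT replicates 2 and 3 (6.95 and 4.09 CPM), a difference of -0.76. The 2 differences are 2.94 apart. The interaction test of edgeR over all genes gave an unadjusted p of 0.174 and an adjusted p of 0.99995, so the difference between the sets did not pass. In each set 1 genotype rests on 1 library. In the set with Xist that library, Lmln-KO replicate 3, is also the only one of a 39-week-old mouse, so genotype and age cannot be told apart there.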

How the results depend on the processing

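In edgeR 0 genes were called over all genes, and 871 had an unadjusted p under 0.05. The count was 24 with DESeq2, 3 without a filter on low counts, 1 with the sex-chromosome term and 0 to 3 when 1 library was left out (3 without WT replicate 1). No alternative called a member. Lmln passed only with DESeq2 (log2 fold change -3.74, adjusted p 2.3e-06) and ranged from -4.71 to -3.27 when 1 library was left out. Hpx had a log2 fold change of -0.048 with the sex-chromosome term. Stat3 had one of 0.0035 with size factors of DESeq2 in edgeR, 0.0032 with library totals, 0.0035 with DESeq2 and 0.0098 without a filter. Leaving out 1 library gave log2 fold changes of -0.73 to 4.28 for Saa1, -0.98 to 5.21 for Saa2, -0.11 to 0.69 for Saa4, -0.28 to 1.75 for Orm2, -0.014 to 0.77 for Hp, -0.45 to 3.03 for Lcn2, -0.018 to 1.14 for Apcs, -0.11 to 0.90 for Serpina3n, -0.25 to 0.34 for Fga, -0.26 to 0.43 for Fgb, -0.24 to 0.37 for Fgg, -0.085 to 0.96 for Fgl1, -0.045 to 0.11 for Il6st; each of these was below 0 only without Lmln-KO replicate 1. The ranges were -1.35 to 0.20 for Saa3 (above 0 only without WT replicate 3), -0.36 to 0.37 for Hpx (below 0 without Lmln-KO replicate 1 or WT replicate 2), -0.42 to 0.19 for Stat3 and -0.29 to 1.57 for Orm3. The cause of these changes was not tested beyond the library left out. Scaling moved the median of all genes by less than 0.1.

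With the replicate number as a block edgeR called 1 gene and no member. Deviations of same-numbered libraries from their genotype mean correlated at 0.62, -0.45 and 0.52 over 13955 genes. Lmln-KO replicates 1 and 2 correlated at 0.62 and 0.61 with WT replicate 1, the WT library with Y-linked transcripts. Lmln-KO replicate 3 correlated at 0.65 and 0.52 with WT replicates 2 and 3, those with Xist. The signs thus followed the sex-chromosome transcripts, so these values cannot tell whether the numbers pair the libraries. Genes under about 100 counts in a library, such as Saa3, Orm2 and Orm3, are limited by depth as well as by 3 libraries per group.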

Other observations

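Of 18703 tested genes, 27 were highest in Lmln-KO replicate 1 by at least 2 times the next library. The 10 members supplied 4 of them and the 35 other positive acute phase genes 3, together 25.9% of the 27. The 27 also held genes of other roles, named here after their values were seen. Moxd1 was 8.38 times the next library, Asns, asparagine synthetase, 3.27 times, Isyna1, inositol-3-phosphate synthase, 3.14 times, Derl3, a factor of endoplasmic reticulum-associated degradation, 2.47 times, and Scara5, a ferritin receptor, 2.37 times. Their Lmln-KO means ran from 3.37 CPM for Asns to 13.8 CPM for Scara5, a range that includes Orm2 at 10.5 CPM.

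Hamp2, Mt1 and Mt2, which were listed among positive acute phase genes, did not share the excess in Lmln-KO replicate 1: all 3 were highest in WT replicate 3, at 133 CPM for Hamp2, 155 CPM for Mt1 and 20.7 CPM for Mt2. Hamp and Il1rn were also highest there, at 891 and 8.23 CPM against 173 and 2.11 CPM in Lmln-KO replicate 1. They are examples, since Lmln-KO replicate 1 was the highest library for only 16 of the 35 listed genes.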
